A study of Mus musculus with 6 samples.

Results

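The 32 genes described here are DNA repair genes of the mouse: 21 of base excision repair and of the clean-up of oxidized nucleotides, 2 of mismatch repair, and 9 of double-strand break repair and its checkpoint kinases. They were taken by name from a table of 24454 genes, in which all 32 have a row. RNA came from Py2T, an epithelial cell line derived from a mammary tumour of the mouse, in 6 libraries with 2 per group. The PBS cells served as the control at 0 µM H2O2 (the treatment protocol calls them untreated), C40 cells were given 40 µM H2O2 daily over 4 months, and I60 cells 60 µM in the same way. All 3 groups are 1 line, both libraries of a group are called biological duplicates, and no source used here says whether they were kept apart during treatment. The p-values therefore measure the spread between libraries, which may be technical, and what arose in a line without H2O2 cannot be told apart from what arose with it.

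Hydrogen peroxide oxidizes guanine in DNA and in the nucleotide pool to 8-oxoguanine, which can pair with adenine. Its guards act in turn: NUDT1 (MTH1) removes the oxidized nucleotide from the pool, OGG1 cuts the oxidized base out of DNA, and MUTYH removes an adenine placed opposite it. Base excision repair then goes on through an endonuclease that cuts the strand, a polymerase that fills the gap and a ligase that seals it. Mismatch repair corrects errors left by replication, and double-strand breaks are joined end to end by the Ku proteins with DNA-PK or copied from the sister chromatid with BRCA1 and BRCA2, while ATM, ATR and their target kinases CHK1 and CHK2 hold the cell cycle.

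The promoter windows of 4 members are shown as a description, and no test used them. Each runs from 250 bases before to 50 after a RefSeq transcript start in GRCm38.p6 (mm10), and is written 5′ to 3′ on the plus strand, on which all 4 genes lie. Mutyh carries the largest difference among the members and its window (chr4:116807484-116807783) also holds the start of the oppositely oriented gene Toe1, at base 118 of the window and 133 bases before the RefSeq transcript start of Mutyh that the window was drawn from (116807734). Mutyh has a further window at a later start, and its annotated gene begins earlier, at 116807636. Capitals in it mark a CCAAT box, read on the reverse strand. Lig1 (chr7:13278576-13278875, the second of its 3 windows), Msh6 (chr17:87974800-87975099) and Chek2 (chr5:110839733-110840032) are shown because, of the 6 members that differed over 2-fold between the C40 libraries, they are the 3 with a site of the E2F type in a window, marked by capitals. The windows of the other 3 (Neil3, Fen1 and Brca1) hold no such site.
Mutyh: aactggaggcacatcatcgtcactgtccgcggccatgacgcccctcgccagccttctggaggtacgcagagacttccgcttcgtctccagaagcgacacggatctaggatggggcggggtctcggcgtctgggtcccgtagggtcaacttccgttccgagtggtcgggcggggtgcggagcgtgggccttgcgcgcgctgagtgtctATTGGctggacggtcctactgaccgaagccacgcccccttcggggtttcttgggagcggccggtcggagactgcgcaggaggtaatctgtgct
Lig1: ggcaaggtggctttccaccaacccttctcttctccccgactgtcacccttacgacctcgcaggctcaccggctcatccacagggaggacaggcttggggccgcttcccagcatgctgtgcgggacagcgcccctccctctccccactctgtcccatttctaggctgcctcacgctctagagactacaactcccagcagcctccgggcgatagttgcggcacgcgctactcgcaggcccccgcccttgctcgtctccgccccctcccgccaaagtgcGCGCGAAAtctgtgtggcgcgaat
Msh6: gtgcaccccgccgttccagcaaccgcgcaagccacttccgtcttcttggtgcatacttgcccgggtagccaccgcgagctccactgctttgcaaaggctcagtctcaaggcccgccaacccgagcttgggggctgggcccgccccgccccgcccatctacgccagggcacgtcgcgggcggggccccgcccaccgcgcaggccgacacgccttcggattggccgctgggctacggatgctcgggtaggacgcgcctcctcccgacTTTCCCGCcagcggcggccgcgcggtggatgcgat
Chek2: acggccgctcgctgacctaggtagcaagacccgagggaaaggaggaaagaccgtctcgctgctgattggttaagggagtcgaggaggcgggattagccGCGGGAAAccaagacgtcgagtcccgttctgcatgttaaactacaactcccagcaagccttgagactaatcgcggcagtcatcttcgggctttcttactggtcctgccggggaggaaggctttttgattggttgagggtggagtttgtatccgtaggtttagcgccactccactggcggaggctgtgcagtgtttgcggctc

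Of the 32 members, 28 have a window in the RefSeq table. An E2F type site, searched on both strands as TTTCCCGC, TTTGGCGC, TTTCGCGC or TTTGCCGC, was found in 6 of the 28 (Brca2, Chek2, Lig1, Msh6, Nthl1 and Xrcc6). Over all genes with a window the share was 2.61% of 27025, and among 24 replication genes (such as Mcm5 and Cdt1) it was 8 of the 19 with a window. A CCAAT box (CCAAT) stood in 17 of the 28 members and in 41.1% of all genes with a window, and the CHR element (TTTGAA), found before many mitosis genes, in 1 member (Fen1) and in 20.2% of genes. The core of the antioxidant response element (TGACNNNGC) was found in Brca2, Neil1 and Pms2, and in 14.0% of genes. These motifs do not contain one another, and a match describes letters only.

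Library totals ran from 48113692 to 60260520 reads. Values are CPM, read counts brought to the same total in each library, so that 1 read equals 0.0166 to 0.0208 CPM. A gene was tested if it reached 1 CPM in at least 2 libraries, which 11524 genes did, and 30 of the 32 members. A difference was called where limma, on log2(CPM + 0.5) with all 6 libraries in 1 model, gave a Benjamini-Hochberg adjusted p below 0.05. The summed CPM of 8 epithelial markers was 6874 and 7381 in PBS, 3786 and 3536 in C40 and 3154 and 3091 in I60. Krt8 at 1059 to 1707 CPM and Krt18 at 1325 to 1697 over the 6 libraries made up nearly all of the I60 sums. Cdh1 stood at 529 and 537 CPM in PBS and at 0.187 and 0.129 in I60. Mean CPM in PBS and I60 was 3069 and 3.16 for Krt7 and 358 and 0.899 for Epcam. For Cldn3 it was 278 and 0.00921, and for Cldn7 135 and 0. Krt19 stayed below 1 CPM in each library. For fibroblasts 6 markers were summed, of which Lum, Fap and Thy1 were at 0 in all libraries and Pdgfra made up most. The sums ranged from 6.01 to 6.86 CPM in PBS, 38.6 to 52.1 in C40 and 15.2 to 25.0 in I60. Those of immune cells (6 genes, Cd3e and Adgre1 at 0) ranged from 4.83 to 5.13, 3.62 to 4.36 and 16.3 to 28.0 CPM, nearly all from Cd68, and those of endothelium and adipocytes stayed below 1 CPM in each library. Their part in the results was not tested, and fewer cells of a type cannot be told apart from less RNA per cell.

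Measured per kilobase of exon, the members covered a wide span in PBS cells. Apex1, the main endonuclease of base excision repair, stood first at 129 CPM per kb, followed by the flap endonuclease Fen1 at 74.4, the strand-break sensor Parp1 at 58.7 and the replicative ligase Lig1 at 48.5. Mutyh ranked 29th with 1.65 CPM per kb, and stood at 3.43 in C40 and 17.97 in I60. Nudt1 with 22.0 and Ogg1 with 11.5 CPM per kb were thus the more abundant guards against 8-oxoguanine in the control. The glycosylase gene Neil2 was at 0 in 5 libraries and had 1 read in the other, where a count of 0 allows 0.0525 to 0.0624 CPM, and Tdg, which removes thymine opposite guanine, ran from 0.499 to 0.903 CPM. Both were left out of the tests. Tdg has near-identical pseudogene copies, one of them with a row of its own at 0.145 to 0.448 CPM, so that its own level is uncertain.

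Few members were called. In C40 against PBS, 1 of 30 was called higher (Mutyh) and 0 lower by limma, beside 11.2% and 9.02% of all tested genes. In I60 against PBS, 2 were called higher (Mutyh and Apex1) and 0 lower, beside 13.9% and 13.1% of all genes. At an unadjusted p below 0.05 in limma there were 6 members in C40 and 7 in I60. The share of all genes at that unadjusted threshold was not counted. These unadjusted counts, and those by pathway below, therefore have no background beside them. edgeR also called 0 members lower in either comparison, while DESeq2 called 4 lower in C40 (Brca1, Chek2, Smug1 and Xrcc5) and 2 in I60 (Chek2 and Xrcc5), beside 13.1% and 16.5% of all genes called lower by DESeq2. With only the PBS and I60 libraries in the fit, 5 members were called lower in I60: Brca1, Chek2, Neil3, Parp1 and Xrcc5. In that fit 17.9% of all genes were called lower, so that the share among the members was near that of all genes. That count was also 5 without C40 replicate 1 and without C40 replicate 2, whose difference had an SD of 0.62 over all tested genes, against 0.36 in PBS and 0.38 in I60. Both comparisons share the PBS libraries.

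The libraries of C40 lay wholly above those of PBS for 5 of the 30 tested members and wholly below for 13, where the shares over all genes were 30.9% and 31.8%. For I60 they lay above for 10 and below for 11, beside 35.5% and 35.2%. The median log2 difference of the members was -0.28 in C40 and -0.23 in I60, and over all genes -0.02 and 0.00. In C40 it was -0.11 without PBS replicate 1 and -0.17 without C40 replicate 2, and in I60 it was 0.11 without PBS replicate 1 and -0.04 without I60 replicate 1. The plot of all libraries shows Mutyh in I60 well apart from the other members, and several members, among them Lig1, Fen1 and Msh6, widely spread within C40.

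**Figure D1:**
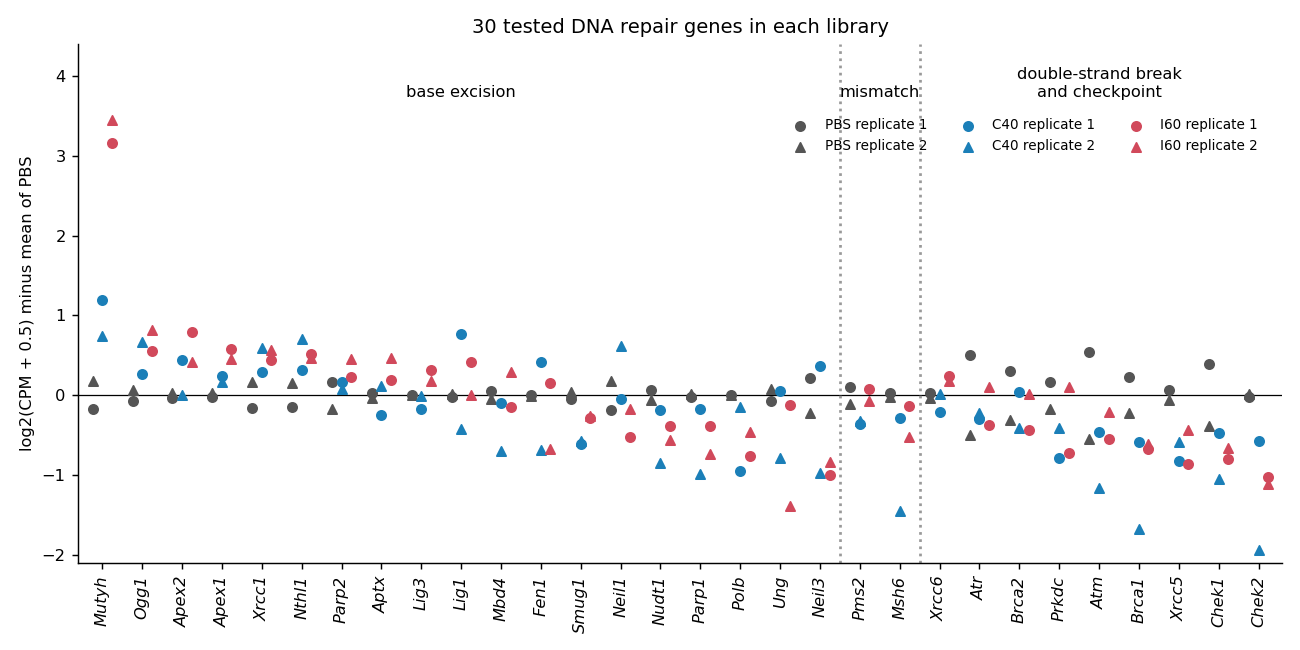
Level of each of the 30 tested members in each library, as log2(CPM + 0.5) minus the mean of the 2 PBS libraries, with members ordered within each pathway by their difference in I60 from PBS; circles are replicate 1 and triangles replicate 2. Mutyh in I60 stands above 3 in both libraries, and the double-strand break genes lie mostly below 0.

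Mutyh, the glycosylase that takes adenine out of pairs with 8-oxoguanine (annotated gene on chromosome 4, 116807636 to 116819439, plus strand), was the member with the largest difference. It stood at 3.73 and 4.91 CPM in PBS, 10.4 and 7.51 in C40, and 42.1 and 51.8 in I60. The 3 groups did not overlap. The fold was 9.87 in I60 against PBS (log2 difference 3.30, SE 0.27, limma adjusted p = 0.000181) and 1.95 in C40 (0.97, SE 0.27, adjusted p = 0.0471). In I60 it was also 5.05-fold above C40 (adjusted p = 0.00238), which tests whether the lines' differences from PBS are equal. The calls in I60 held under all 16 alternatives tried, with adjusted p up to 0.00545 against PBS and 0.041 against C40. The call in C40 held under 8 of 16, with adjusted p from 0.003 to 0.281, and was lost without PBS replicate 1 or 2, C40 replicate 1, or I60 replicate 1 or 2 (adjusted p up to 0.281).

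The other guards of 8-oxoguanine did not pass the main test. Ogg1 (chromosome 6, 113326972 to 113334877) stood at 23.9 and 26.5 CPM in PBS, 30.3 and 40.1 in C40, and 37.1 and 44.6 in I60. Both treated lines lay above PBS, with a log2 difference of 0.46 in C40 (adjusted p = 0.184) and 0.68 in I60 (95% interval 0.16 to 1.21, adjusted p = 0.0618). Under 5 of 16 alternatives Ogg1 was called higher in I60 (adjusted p from 0.0248 to 0.277 over all 16), among them DESeq2, the fit of only the PBS and I60 libraries, and the fits without C40 replicate 1 or without C40 replicate 2. Nudt1 (chromosome 5, 140321622 to 140338137) stood at 33.7 and 31.0 CPM in PBS, 28.3 and 17.7 in C40, and 24.6 and 21.7 in I60. Its treated libraries all lay below PBS, with log2 differences of -0.52 (adjusted p = 0.207) and -0.48 (adjusted p = 0.228). The ratios of Ogg1 and of Mutyh to Nudt1 lay above those of PBS in each treated library. The ratio of Ogg1 to Nudt1 in CPM, not corrected for length, was 0.709 and 0.855 in PBS, 1.07 and 2.27 in C40, and 1.51 and 2.05 in I60. That of Mutyh to Nudt1 was 0.111 and 0.159 in PBS, 0.367 and 0.424 in C40, and 1.72 and 2.39 in I60. The ratio of Mutyh to Ogg1 was 0.1558 and 0.1856 in PBS, 0.3427 and 0.1871 in C40, and 1.135 and 1.162 in I60. In C40 replicate 2 it was thus nearly equal to that of PBS replicate 2. These ratios are descriptions and were not tested. Ogg1 shares 945 bases with Camk1 on the opposite strand, and how the counting treated strand is not known from the sources here. Camk1 had 9.59 and 12.5 CPM in PBS, 21.2 and 39.1 in C40, and 8.48 and 15.7 in I60. Nudt1 likewise shares 4225 bases with Mrm2, which had 10.2 and 10.9 CPM in PBS, 13.7 and 10.2 in C40, and 13.3 and 12.9 in I60.

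**Figure D2:**
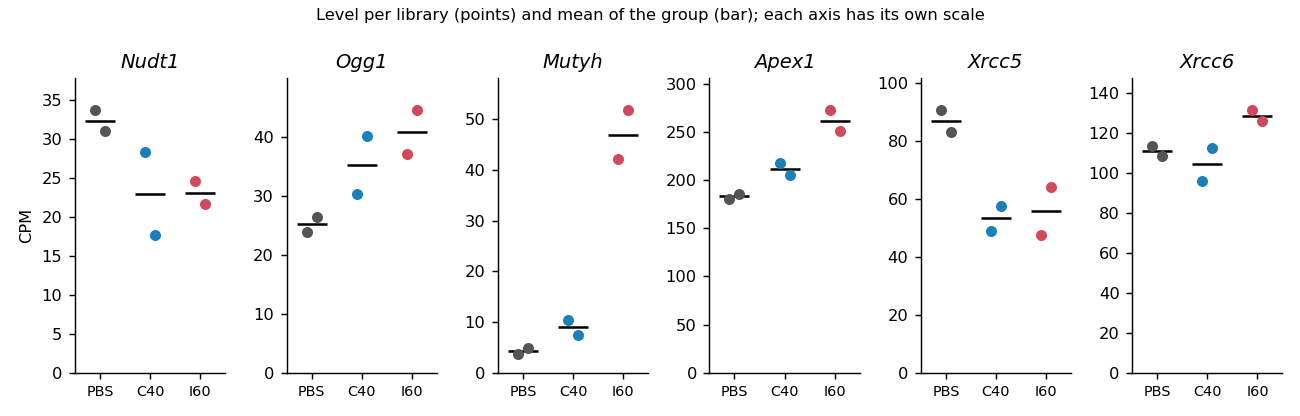
CPM of 6 members in each library (points) and the mean of each group (bar), every panel on its own linear axis from 0. Mutyh, Apex1 and Ogg1 stand above PBS in both treated lines and Nudt1 and Xrcc5 below, while Xrcc6 overlaps PBS in C40 and lies above it in I60.

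The remaining glycosylases, which open repair by removing damaged bases, were not called. Nthl1, for oxidized pyrimidines, averaged 5.32 ± 0.860 CPM in PBS, against 7.82 ± 1.53 in C40 and 7.65 ± 0.194 in I60 (SD, n = 2), with both treated lines above PBS. Smug1, which removes uracil and its oxidized forms, stood at 37.2 and 39.4 CPM in PBS, 24.8 and 25.5 in C40, and 31.2 and 31.7 in I60. Its libraries lay closely together within each group, and the log2 difference in C40 was -0.60 (95% interval -1.02 to -0.17, adjusted p = 0.0591). Neil3, a glycosylase of replicating cells, stood at 10.2 and 7.35 CPM in PBS, 11.3 and 4.14 in C40, and 4.08 and 4.61 in I60, so that only the I60 libraries lay apart from PBS (log2 difference -0.92, adjusted p = 0.171). Ung, the main uracil glycosylase, differed widely within the treated lines, at 42.9 and 23.7 CPM in C40 and 37.7 and 15.4 in I60, against 39.1 and 43.4 in PBS. Neil1 and Mbd4 ranged from 3.63 to 8.57 and from 6.46 to 13.3 CPM over the 6 libraries, with adjusted p of 0.368 to 0.882 against PBS.

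Apex1, which cuts the strand at the abasic site (chromosome 14, 50924949 to 50927188), was the other called member. It stood at 180.1 and 186 CPM in PBS, 217 and 205 in C40, and 273 and 251 in I60. No library of a group overlapped another group, and I60 was 1.43-fold above PBS (log2 difference 0.51, SE 0.15, limma adjusted p = 0.0402). That call held under 9 of 16 alternatives (adjusted p from 0.0197 to 0.205). It was lost with edgeR, with TMM scaling, without the intensity trend, and without any 1 of the PBS or I60 libraries, where the adjusted p reached 0.205. Its relative Apex2 stood at 20.7 and 21.6 CPM in PBS, 28.8 and 21.2 in C40, and 36.9 and 28.4 in I60 (I60 against PBS 0.61 on the log2 scale, adjusted p = 0.11). Apex1 shares 1072 bases with Pip4p1 on the opposite strand, which had 49.1 and 58.6 CPM in PBS and 51.5 and 59.1 in I60.

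Xrcc1, the scaffold that holds the repair complex together, stood at 59.6 and 74.7 CPM in PBS, 81.9 and 101 in C40, and 90.8 and 99.1 in I60, with both treated lines above PBS and log2 differences of 0.44 (adjusted p = 0.154) and 0.51 (adjusted p = 0.0999). Polb, the polymerase that fills a gap of 1 base, stood at 28.3 and 28.4 CPM in PBS, 14.4 and 25.6 in C40, and 16.5 and 20.5 in I60, all treated libraries below PBS (adjusted p = 0.239 and 0.183). Lig3, the ligase that works with XRCC1, stood at 149 and 148 CPM in PBS, 132 and 148 in C40, and 185 and 168 in I60. Its I60 libraries lay above all others but were not called (limma adjusted p = 0.281 against PBS and 0.266 against C40). The replicative ligase Lig1 stood at 204 and 210.2 CPM in PBS, 353 and 155 in C40, and 276 and 207 in I60. Its C40 libraries thus lay on either side of PBS, as did those of the flap endonuclease Fen1, at 240.1 and 112 CPM in C40 against 181 and 179 in PBS. Aptx, which clears failed ligations, ranged from 16.6 to 27.6 CPM over the 6 libraries and was not called. Its I60 libraries, at 22.7 and 27.6 CPM, lay above all others.

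The sensors of strand breaks in this group were not called. Parp1 stood at 307 and 314 CPM in PBS, 275 and 157 in C40, and 238 and 187 in I60, with both treated lines below PBS and log2 differences of -0.58 (adjusted p = 0.18) and -0.56 (adjusted p = 0.181). Parp2 averaged 31.2 ± 5.22 CPM in PBS, against 33.8 ± 1.51 in C40 and 39.5 ± 4.47 in I60. Their ratio in CPM was 8.80 and 11.4 in PBS, 7.89 and 4.80 in C40, and 6.55 and 4.38 in I60. Over base excision repair as a whole, 19 of 21 members were tested, with a median log2 difference of -0.07 in C40 and 0.21 in I60. In C40 limma called 1 higher and 0 lower, beside 11.2% and 9.02% of all tested genes. In I60 it called 2 and 0, beside 13.9% and 13.1%. At an unadjusted p below 0.05 there were 2 in C40 and 5 in I60, a share not counted over all genes.

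**Figure D3:**
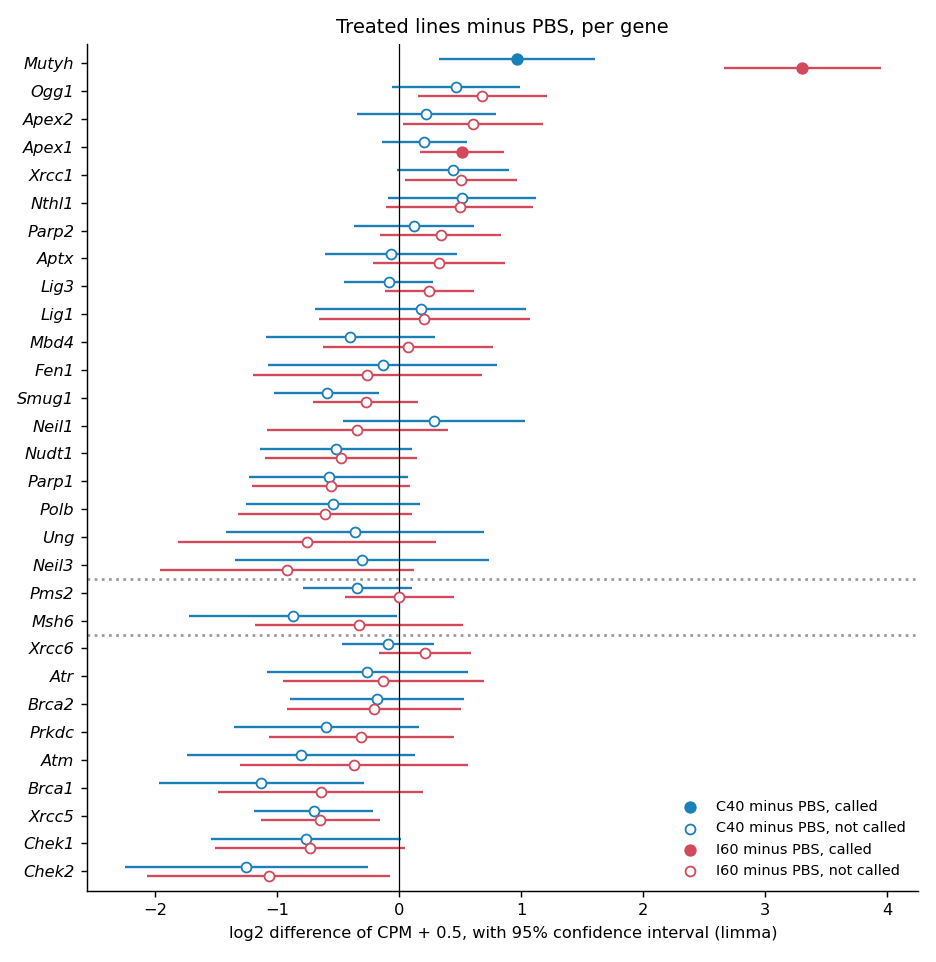
Log2 difference from PBS with its 95% confidence interval from limma for each tested member, C40 in blue and I60 in red, filled where called; dotted lines part base excision, mismatch and double-strand break genes. Filled points are Mutyh in both lines and Apex1 in I60, and the intervals of most other members include 0.

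The mismatch repair members are Msh6, which takes part in recognising single mismatches, and Pms2, which takes part in cutting the strand that carries the error. Msh6 stood at 187 and 180.3 CPM in PBS, 151 and 66.9 in C40, and 167 and 128 in I60. All treated libraries lay below PBS, and the C40 libraries lay -1.17 apart on the log2 scale (replicate 2 minus replicate 1). The log2 difference was -0.87 in C40 (adjusted p = 0.134) and -0.33 in I60 (adjusted p = 0.538). Pms2 stood at 42.0 and 36.0 CPM in PBS, 30.1 and 31.0 in C40, and 41.0 and 36.9 in I60, below PBS in C40 (-0.34, adjusted p = 0.238) and overlapping it in I60 (0.00, 95% interval -0.45 to 0.45). With limma, 0 of the 2 were called in either comparison, with 1 (Msh6 in C40) at an unadjusted p below 0.05, and edgeR and DESeq2 called 0.

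Of the 9 genes of double-strand break repair and its checkpoint, all had a fitted difference below 0 in C40 and 8 in I60. Limma called 0 in either comparison, as did edgeR. Over all genes limma called 9.02% lower in C40 and 13.1% in I60. DESeq2 called Brca1, Chek2 and Xrcc5 lower in C40 and Chek2 and Xrcc5 in I60, beside 13.1% and 16.5% of all genes. At an unadjusted p below 0.05 in limma there were 3 in C40 (Brca1, Chek2 and Xrcc5) and 2 in I60 (Chek2 and Xrcc5). That share was not counted over all genes. The median log2 difference was -0.70 in C40 and -0.37 in I60, beside -0.02 and 0.00 over all genes. The groups lay apart with the treated line lower for 5 of 9 in C40, where the share over all genes is the 31.8% given above, and for 4 of 9 in I60, beside 35.2%. In I60 1 of the 9 lay wholly above PBS (Xrcc6).

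The Ku proteins bind broken ends as a pair of 2 different subunits, and the messages of both are given side by side. Xrcc5, which encodes Ku80 (chromosome 1, 72307417 to 72394953), stood at 90.7 and 83.0 CPM in PBS, 49.0 and 57.6 in C40, and 47.7 and 64.0 in I60. Both treated lines lay below PBS, with log2 differences of -0.70 (95% interval -1.19 to -0.22, adjusted p = 0.0533) and -0.65 (-1.13 to -0.16, adjusted p = 0.0574). Xrcc6, which encodes Ku70, stood at 114 and 109 CPM in PBS, 96.4 and 113 in C40, and 132 and 126 in I60 (adjusted p = 0.712 and 0.372). The ratio of Xrcc5 to Xrcc6 in CPM was 0.798 and 0.762 in PBS, 0.508 and 0.511 in C40, and 0.362 and 0.508 in I60. All 4 treated libraries thus lay below the PBS libraries in this ratio, which was not tested. Xrcc6 shares 41340 bases with Desi1 on the opposite strand, which had 158 and 147 CPM in PBS and 131 to 211 in the treated lines. Prkdc, the kinase recruited by Ku, averaged 30.9 ± 5.23 CPM in PBS, against 20.3 ± 3.75 in C40 and 25.7 ± 10.3 in I60. Its C40 libraries (17.6 and 22.9 CPM) lay wholly below those of PBS (34.6 and 27.2), while I60 overlapped PBS.

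Chek2, the kinase activated by ATM (chromosome 5, 110839800 to 110874140), had the lowest fitted differences of all members. It stood at 26.1 and 26.8 CPM in PBS, 17.7 and 6.53 in C40, and 12.7 and 11.96 in I60. The treated libraries all lay below PBS, with log2 differences of -1.25 (SE 0.42, adjusted p = 0.0789) and -1.07 (SE 0.42, adjusted p = 0.106). Brca1, which directs repair by homologous copying (chromosome 11, 101488761 to 101551955), stood at 103 and 75.5 CPM in PBS, 58.7 and 27.2 in C40, and 55.1 and 57.6 in I60, again all below PBS (-1.13, adjusted p = 0.0651, and -0.64, adjusted p = 0.227). Chek1, the kinase activated by ATR, stood at 35.2 and 20.3 CPM in PBS and between 12.6 and 19.1 in the treated lines (adjusted p = 0.147 and 0.149). Its PBS libraries lay -0.78 apart on the log2 scale, as far as PBS lay from the treated lines (-0.76 and -0.73).

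Atm, Atr and Brca2 overlapped between groups. Atm stood at 97.1 and 45.4 CPM in PBS, 48.2 and 29.4 in C40, and 45.5 and 57.5 in I60. Atr stood at 54.9 and 27.1 CPM in PBS, 31.3 and 32.9 in C40, and 29.7 and 41.6 in I60. For both, the PBS libraries lay over 2-fold apart, at -1.09 and -1.01 on the log2 scale, and were 2 of 172 tested genes that lay this much lower in PBS replicate 2. Brca2, which acts in homologous copying of broken DNA, ranged from 21.7 to 36.6 CPM over the 6 libraries, with adjusted p of 0.705 and 0.649.

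Between the treated lines, Mutyh was the 1 member called (higher in I60), with 0 lower and no other member at an unadjusted p below 0.05. Over all genes 3.51% were called higher and 5.73% lower in I60 than in C40. The groups lay apart with I60 higher for 8 of 30 members and lower for 1 (Neil1), beside 24.4% and 24.4% of all genes. The median log2 difference of the members was 0.20, against 0.02 over all genes. Without C40 replicate 1 the count called higher was 3 (Brca1, Msh6 and Mutyh), beside 7.22% of all genes, and without C40 replicate 2 Neil3 was called lower, beside 6.41%.

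Several members differed widely between the C40 libraries. On the log2 scale, C40 replicate 2 lay below replicate 1 by over 2-fold for 6 of the 30 tested members: Chek2 (-1.37), Neil3 (-1.34), Lig1 (-1.19), Msh6 (-1.17), Fen1 (-1.10) and Brca1 (-1.09). Over all 11524 tested genes 553 did so. By any amount, 17 of the 30 members and 6180 of the 11524 genes were lower in C40 replicate 2. The medians were -0.26 for the members and -0.04 for all genes. Of the 24 replication genes 22 were lower in C40 replicate 2, with a median of -0.85 and 11 by over 2-fold, and of 16 mitosis genes 16 were, with a median of -0.75. Other members lay the other way, among them Polb (0.81), Neil1 (0.66) and Ogg1 (0.40). In I60 the median was -0.41 for the replication genes and 0.10 for the members, and in PBS -0.10 and -0.03. The double-strand break genes had medians of -0.45 in PBS and C40 alike, and 0.34 in I60. The part of these library differences in the comparisons with PBS was not tested. Without C40 replicate 1, limma called 5 members lower in C40 (Brca1, Chek2, Msh6, Nudt1 and Parp1), beside 15.2% of all genes under the same setting. Without C40 replicate 2 it called Polb and Xrcc5 lower and Lig1 and Mutyh higher, beside 8.35% and 11.4% of all genes. Of the 6 members named above, Chek2, Lig1 and Msh6 hold an E2F type site in their windows, shown at the opening.

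**Figure D4:**
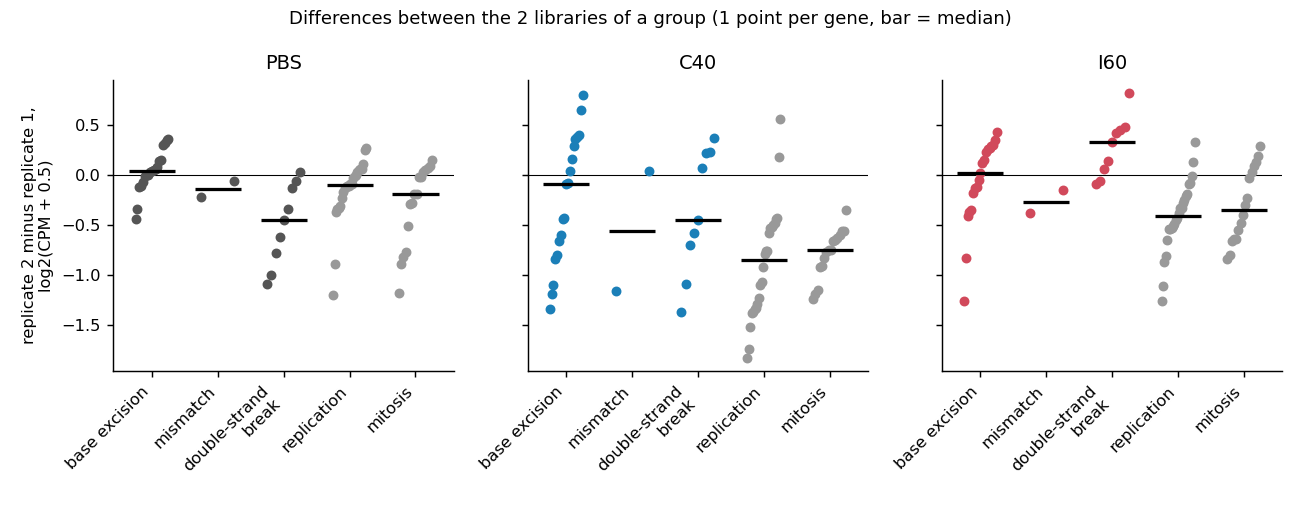
Replicate 2 minus replicate 1 on the log2(CPM + 0.5) scale within each group, 1 point per gene with the median as a bar, for the members by pathway and, in grey, for 24 replication and 16 mitosis genes. The replication and mitosis genes lie lowest in C40, with medians of -0.85 and -0.75, and the median of the double-strand break genes lies below 0 in PBS and C40 and above 0 in I60.

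Mutyh did not stand alone on its chromosome. Of the 5 tested genes nearest on either side, 5 of 10 were called higher in C40 against PBS, 8 in I60 against PBS and 6 in I60 against C40, with medians of 0.82, 2.73 and 1.96 on the log2 scale. Toe1, whose start lies in the Mutyh window printed above, stood at 32.5 and 34.9 CPM in PBS, 78.0 and 62.4 in C40, and 414 and 493 in I60, a 13.2-fold difference between I60 and PBS (limma adjusted p = 2.07e-05). The other neighbours called in I60 were Prdx1 (log2 difference 2.67), Mmachc (3.62), Ccdc163 (3.10), Tesk2 (2.78), Hpdl (4.33), Zswim5 (2.41) and Hectd3 (0.69), while Urod (0.74) and Eif2b3 (0.55) were not called. Within 1500 kb, 28 of 48 tested genes were called higher in I60 and 3 lower, against 16 and 2 in C40. The run of consecutive tested genes called higher in I60 that holds Mutyh had 18 members, from Pik3r3 to Zswim5 (116221400 to 116989105); this window and run were chosen after the values were seen. The 10 neighbours of Apex1 had a median log2 difference of 0.33 in I60 against PBS and adjusted p of 0.0685 or more, so that limma called 0 of them.

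**Figure D5:**
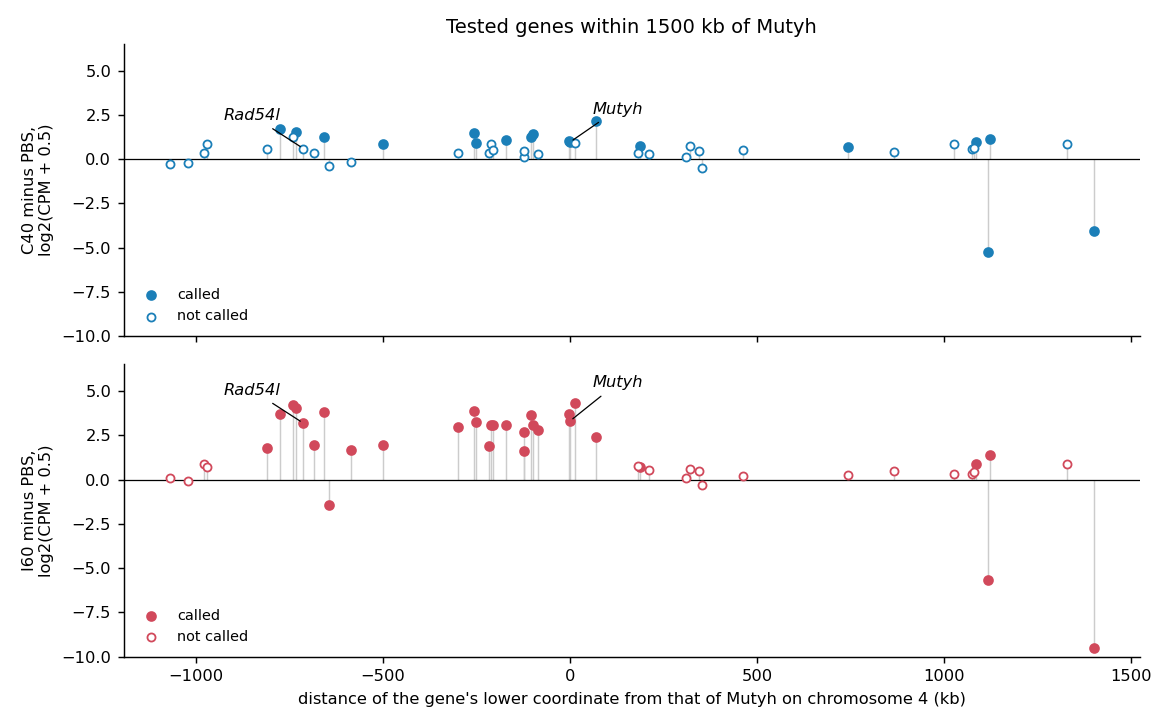
Log2 difference from PBS of the 48 tested genes within 1500 kb of Mutyh on chromosome 4, by the distance of their lower coordinate from that of Mutyh, C40 above and I60 below, filled where called. In I60 the called genes gather from Mutyh towards lower coordinates, where Rad54l lies, and beyond Zswim5 open points prevail.

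Beyond the 32 members, 110 further repair genes were listed by pathway and 108 tested. In C40 against PBS limma called 4 higher and 3 lower, beside 11.2% and 9.02% of all tested genes. In I60 against PBS it called 5 higher and 7 lower, beside 13.9% and 13.1%. In I60 against C40 it called 2 higher and 1 lower, beside 3.51% and 5.73%. The medians of the 108 genes were -0.25, -0.28 and 0.03 on the log2 scale. Among 21 tested base excision genes, Parp3, a strand-break sensor, stood at 19.5 and 18.3 CPM in PBS, 48.8 and 29.2 in C40, and 84.4 and 82.6 in I60, and was called in all 3 comparisons (adjusted p = 0.0396, 0.00122 and 0.0408). Tdp1, which frees DNA from trapped topoisomerase, was called higher in both lines (0.73, adjusted p = 0.0397, and 0.65, adjusted p = 0.0472), and Pole4 lower in I60 (-0.88, adjusted p = 0.0215). The I60 call of Parp3 against PBS held under all 16 alternatives. Its other calls were lost without any 1 PBS or I60 library (adjusted p up to 0.232), as were those of Tdp1 (up to 0.22) and Pole4 (0.141). Parp3 shares 987 bases with Rrp9 on the opposite strand, at 95.2 to 168 CPM.

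Among the other mismatch repair genes, Mlh3 and Pold4 were called lower in I60. Mlh3, which acts in mismatch repair and meiosis, stood at 17.5 and 13.7 CPM in PBS, 11.7 and 10.8 in C40, and 4.81 and 5.78 in I60. It was called lower in I60 against PBS (-1.47, adjusted p = 0.00477, held under 15 of 16 alternatives, with 0.0563 without PBS replicate 1) and against C40 (-1.02, adjusted p = 0.0461, held under 7 of 16 and lost without any 1 library, with p up to 0.266). Pold4, the small subunit of polymerase delta, was lower in I60 at 77.7 and 91.1 CPM against 141 and 135 in PBS (adjusted p = 0.0182, up to 0.128 without any 1 PBS or I60 library).

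Among 45 other genes of double-strand break repair, 2 were called higher and 2 lower in C40, and 3 and 2 in I60. The shares over all tested genes were 11.2% and 9.02% in C40, and 13.9% and 13.1% in I60. Rad54l, a motor protein of homologous copying, stood at 25.7 and 24.1 CPM in PBS, 66.2 and 21.8 in C40, and 262 and 202 in I60 (3.18 in I60 against PBS, adjusted p = 0.00268). Rad54l lies 713 kb before Mutyh on chromosome 4. Tspan1, at -1.43 in I60 against PBS, ends the run of 18 genes given above on that side. The genes next beyond Tspan1, Pomgnt1 (3.80), 2510003B16Rik (1.96), Rad54l and Lrrc41 (4.04), again had differences above 0. Rad54l shares 2780 bases with Lrrc41 on the opposite strand. Lrrc41 stood at 67.7 and 73.5 CPM in PBS and 1289 and 1057 in I60. Mus81, a structure-specific endonuclease, was called higher in C40 (1.20, adjusted p = 0.00718) and I60 (0.75, adjusted p = 0.0339); it overlaps Efemp2 on the opposite strand by 173 bases, which had 59.2 and 41.6 CPM in C40 and under 1 in I60. Rad51b was called higher in C40 (1.16, adjusted p = 0.0202) and Trp53bp1, which favours end joining, in I60 (0.71, adjusted p = 0.0207). Trp53bp1 shares 5490 bases with Tubgcp4 on the opposite strand, which had 85.4 and 74.4 CPM in PBS and 78.0 and 71.9 in I60. The partners of BRCA1 and BRCA2 named Palb2 (-1.20, adjusted p = 0.0284) and Brip1 (-1.14, adjusted p = 0.0405) were called lower in C40. Lig4, the ligase of end joining (-0.99, adjusted p = 0.0474), and Rad54b (-1.12, adjusted p = 0.0348) were called lower in I60. Rad54b shares 7927 bases with Fsbp on the same strand, which had 7.37 and 5.96 CPM in PBS and 3.67 and 3.63 in I60. Of 27 genes of nucleotide excision and crosslink repair, limma called 1 lower in I60 (Ddb2, -1.05, adjusted p = 0.0269) and 0 in C40. In C40, 7 had an unadjusted p below 0.05, a share not counted over all genes, and edgeR also called 0. DESeq2 called Fance and Xpc higher in C40 and Ddb2 and Ube2t lower, beside 15.7% and 13.1% of all genes. Ddb2 shares 2527 bases with Acp2 on the opposite strand, at 20.7 to 36.9 CPM over the 6 libraries. Of the calls in this paragraph, Rad54l in I60 against PBS held under all 16 alternatives and the others under 9 to 14. Leaving out either PBS library ended each of these others (adjusted p up to 0.282), and leaving out either I60 library ended those of I60.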

How the data were processed

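Total RNA of 6 libraries was depleted of ribosomal RNA and read as single reads, per the labels' protocols. STAR and mm10 were used, per the submitters' processing notes; the program that counted reads, its annotation and its handling of strand were not given in these sources. The authors deposited CPM, 1 row per Entrez gene. All values were whole multiples of the value of 1 read within 0.01, and reads recovered in this way went into edgeR 4.0.16 and DESeq2 1.42.0. RefSeq symbols matched 24374 IDs, leaving 80 unmatched. Gene positions and promoters came from RefSeq, exon lengths and overlaps from GENCODE.

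The main test was limma 3.58.1 (R 4.3.3), two-sided, on log2(CPM + 0.5) with the prior spread following intensity, with 3 residual degrees of freedom. Members and lists were chosen with earlier results of these data known. All members could be named, other repair genes if called in at least 1 comparison, and neighbours of a called member if at least 5 of 10 were called the same way. The values of 1 listed gene are not reported here. Folds are on the log2(CPM + 0.5) scale and understate changes of low genes. The limma step was tested on simulated data. Alternatives were 2 pseudocounts, 2 filters, TMM scaling, edgeR, DESeq2, a replicate block, only the 2 groups compared, no trend, and each library left out.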

Additional observations from a re-analysis of the deposited data

Results flagged for a closer look

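The 4 results below differ between the treated lines: the test of I60 against C40 is also the test of whether their differences from PBS are equal. Mutyh, the glycosylase of adenine opposite 8-oxoguanine, stood 2.34 higher in I60 than in C40 on the log2 scale (limma adjusted p = 0.00238), with both I60 libraries above both C40 libraries. Rad54l, in the same stretch of chromosome 4, stood 2.58 higher (adjusted p = 0.0162, from 3.35e-06 to 0.148 over the alternatives), with 66.2 and 21.8 CPM in the C40 libraries. Parp3 stood 1.13 higher (adjusted p = 0.0408, from 0.00189 to 0.232). Mlh3, a mismatch repair gene, had a difference of -1.02 (adjusted p = 0.0461, from 0.000583 to 0.266). What lies behind these differences was not tested.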

How the results depend on the processing

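Over 16 alternatives and 45 named genes in 3 comparisons, 1973 of 2160 values kept their side of the threshold, 124 lost and 63 gained a call, and 0 called values changed sign; 70 values of uncalled genes did. Counts that changed by 1.5 times or more are given by setting, and the cause was not tested. Shares over all tested genes changed with the setting too. In C40 against PBS they were 15.7% higher and 13.1% lower with DESeq2, and 13.5% and 11.3% with the replicate block. With the 2 groups alone they were 8.34% and 6.2%, and with no filter 6.97% and 6.02%. In I60 against PBS they were 17% and 16.5% with DESeq2, and 15.5% and 14.8% with the block. With the 2 groups alone they were 18.4% and 17.9%, and with no filter 9.58% and 9%.

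Members called higher in C40 against PBS (1) became 0 with a pseudocount of 1, with no filter and with only the 2 groups compared, and 0 to 2 leaving out single libraries. Members called lower in C40 (0) became 1 with TMM, 4 with DESeq2, 3 with the replicate block (Brca1, Chek2 and Xrcc5), and 0 to 5 leaving out libraries. For I60 against PBS, members higher (2) became 1 with TMM, edgeR and no trend, 3 with DESeq2, the block and the 2 groups alone (Ogg1 added), and 1 to 3 leaving out libraries. Members lower (0) became 1 with TMM, 2 with DESeq2, 1 with the block (Xrcc5), 5 with the 2 groups alone, and 0 to 5 leaving out libraries. Against C40, leaving out libraries gave 1 to 3 members higher and 0 to 1 lower in I60. The median over members ran from -0.45 to -0.11 in C40, from -0.25 to 0.11 in I60 and from 0.17 to 0.28 between the treated lines when libraries were left out, and was 0.11 in I60 without PBS replicate 1 and -0.04 without I60 replicate 1.

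Other repair genes called higher in C40 (4) became 2 with no filter, 9 with DESeq2, 8 with the block, 2 with the 2 groups alone, and 0 to 7 leaving out libraries. Those lower in C40 (3) became 1 with no filter, 5 with TMM, 13 with DESeq2, 9 with the block, 0 with the 2 groups alone, and 0 to 27, the 27 without C40 replicate 1. Those higher in I60 (5) became 11 with DESeq2, 8 with the block, 12 with the 2 groups alone, and 2 to 12. Those lower in I60 (7) became 3 with no filter, 16 with DESeq2, 11 with the block, 19 with the 2 groups alone, and 0 to 19, the 19 without either C40 library. Those higher in I60 than C40 (2) became 0 with no filter and with the 2 groups alone, and 0 to 7. Those lower (1) became 0 with no filter and with the 2 groups alone, 2 with TMM and no trend, 4 with DESeq2, and 0 to 2.

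The libraries share only a replicate number: deviations of same-numbered libraries correlated at 0.15 (PBS and C40), 0.11 (PBS and I60) and 0.44 (C40 and I60) over 11524 genes, and with 2 numbers no pairing can be read from the data. A group left with 1 library is assumed to vary like the others.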
